A study of Chlorocebus sabaeus with 12 samples.

Results

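The drug and aldehyde metabolising enzyme families were followed on 12 one-colour human arrays hybridised with RNA of COS-1, an African green monkey (Chlorocebus sabaeus) kidney line that carries the SV40 large T antigen. Members were the non-control probes whose gene name on the array begins with CYP, UGT, SULT, GST (classes A, K, M, O, P, T and Z), ALDH or AKR followed by a digit. CYP51A1, CYP7A1, CYP8B1, CYP27A1, CYP7B1 and CYP39A1, which make sterols and bile acids, were left out, and the brightest probe stood for each gene. This gave 117 genes of the 30982 names on the array. They were 46 cytochromes P450 (CYP), 14 UDP-glucuronosyltransferases (UGT), 11 sulfotransferases (SULT), 17 glutathione S-transferases (GST), 19 aldehyde dehydrogenases (ALDH) and 10 aldo-keto reductases (AKR).

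The series compared 2 mutants of human FXR, the nuclear receptor for bile acids, in which 1 serine is replaced by alanine (S154A) or by aspartate (S154D). Each mutant was expressed transiently for 24 h, and the cells then received 0.1% DMSO or chenodeoxycholic acid (CDCA, a bile acid that activates FXR, given in the labels as 50 mM) for another 24 h. The 4 groups, S154A DMSO, S154A CDCA, S154D DMSO and S154D CDCA, hold 3 arrays each. No array of cells with unmutated FXR or without FXR plasmid was analysed here, and nothing in the labels says that the 3 arrays of a group came from separate cultures, so p-values measure the spread between arrays, which may be technical.

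Drug metabolism is usually described in phases. Cytochromes P450 oxidise lipophilic compounds, aldehyde dehydrogenases and aldo-keto reductases handle the carbonyls that arise, and UGT, SULT and GST enzymes attach glucuronate, sulfate or glutathione so that the product can leave the cell. In liver and gut many of these genes answer to nuclear receptors, including FXR, and to the aryl hydrocarbon receptor and NRF2.

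The sequences shown are the array probes of the enzymes that the comparisons below turn on and that are read in coding sequence, ALDH3A1, CYP4F12 and SULT1A1, together with SULT1A4, a close relative of SULT1A1. They are human 60-base sequences from the deposited scanner files, with coordinates of build hg17, and monkey RNA was hybridised to them. Capitals mark the longest run that the SULT1A1 and SULT1A4 probes share, 8 bases.

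ALDH3A1, chr17:19584335-19585009, minus strand: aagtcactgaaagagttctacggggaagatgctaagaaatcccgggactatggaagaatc
CYP4F12, chr19:15655543-15656654, plus strand: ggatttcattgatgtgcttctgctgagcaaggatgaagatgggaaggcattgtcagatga
SULT1A1, chr16:28525659-28525813, minus strand: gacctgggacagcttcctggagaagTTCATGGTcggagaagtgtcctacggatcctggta
SULT1A4, chr16:29383049-29383108, plus strand: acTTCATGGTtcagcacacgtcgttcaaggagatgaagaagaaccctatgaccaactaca

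The coordinates of the ALDH3A1, CYP4F12 and SULT1A1 probes span 675, 1112 and 155 bases, more than the probe's own 60, so each probe crosses an intron of the human gene. The 2 SULT1A probes lie at different places and share little, although human SULT1A enzymes are near copies of each other. How far each human probe also reads another family copy of the monkey was not tested.

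Signal from most members was present in these cells. The scanner software marks a spot as well above background, and 73 of the 117 members carried that mark on all 12 arrays (62.4%, against 57.6% of all gene names), 33 on some arrays and 11 on none. A member was tested if any group carried the mark on each of its 3 arrays, which 88 members met (75.2%, against 65.7% of all names). Of the 29 others, 11 were the members marked on no array and 18 were marked on at most 6 arrays.

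The families differed in how many members gave signal. All 19 ALDH genes were tested, and 17 of them were marked on all 12 arrays. GST followed with 15 of 17 tested, AKR with 8 of 10 and the CYP1 to CYP3 families, which oxidise drugs, with 17 of 23. The CYP4 family, which oxidises fatty acids, had 7 of 11, and the other cytochromes P450, most of which act on steroids, vitamin D or retinoids, had 9 of 12. Conjugation by UGT and SULT was least represented, with 8 of 14 and 5 of 11 tested and 4 in each family marked on every array.

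**Figure D1:**
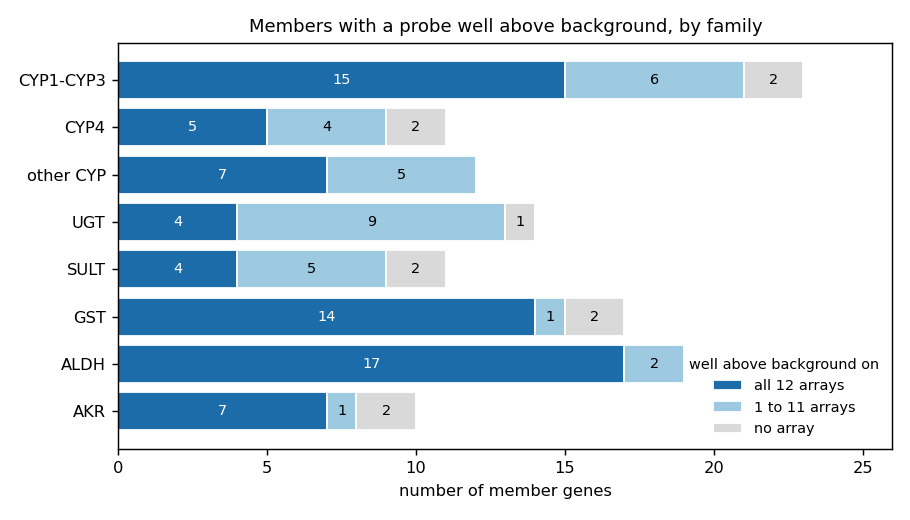
Number of member genes (horizontal axis) in each family (vertical axis), by the number of arrays on which the brightest probe was well above background: all 12 (dark blue), 1 to 11 (light blue) or none (grey). ALDH had 17 of 19 members on all 12 arrays, and UGT 4 of 14.

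The members marked on no array were CYP2C8, CYP2J2, CYP4F3, CYP4Z2P, GSTA1, GSTA5, AKR1C4, AKR1D1, SULT1C1, SULT1C2 and UGT2A3. Among them are AKR1D1, the reductase of the bile acid synthesis pathway, and GSTA1, an abundant transferase of liver. SULT1A3 was marked on 1 array and SULT1A4 on 12, although in humans both genes encode the same enzyme.

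The mark shows brightness on a human probe and does not by itself show the monkey transcript. Of the 117 names, 78 are also symbols in the green monkey RefSeq annotation, but only 1 of the 14 UGT names and all 19 ALDH names are. Of cell type markers, 6 of 8 fibroblast and 5 of 5 epithelial genes were marked on all 12 arrays, as were 6 of 9 hepatocyte genes and 2 of 5 leukocyte genes. The hepatocyte genes marked on all 12 include CYP2E1 and CYP3A4, which are themselves members. CD3E and CD14 were marked on 12 arrays and PTPRC on none. Of 5 genes of the kidney proximal tubule, only AQP1 was marked on all 12, and SLC22A6 was marked on none.

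Across arrays 61.6% to 79.8% of all spots were well above background, and 78 to 99 of the 117 members. Values below are log2 signals relative to the 75th percentile of the same array, so 0 is the level of that percentile and each gene is compared only with itself. The median standard deviation among arrays of a group was 0.19 for the 73 members marked on all 12 arrays and 0.53 for the other 15 tested, close to the 0.18 and 0.47 of all genes. Fold changes are log2 differences ± the standard error of the fit, 3 arrays per group, and called means an adjusted p under 0.05 (limma, Benjamini-Hochberg over 20355 genes).

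In S154D cells, 4 of the 88 tested members were called with CDCA against DMSO. The S154D CDCA arrays lay on slides 2, 3 and 2 and the S154D DMSO arrays on slides 1, 4 and 3. Only slide 3 held both, so slide and CDCA are largely confounded here and cannot be fully told apart. ALDH3A1 and ALDH9A1 rose, and CYP4F12 and SULT1A1 fell; ALDH3A1 had passed the filter only through the group where it is high. In that comparison 10.2% of all genes tested were called and 4.55% of the tested members, so the share among members was below that of the array as a whole. By direction, 2 members were called higher (6.45% of all genes) and 2 lower (3.74%). At an unadjusted p under 0.05 there were 13 members, 14.8% against 30% of all genes. The arrays of both groups did not overlap for 7 members above and 10 below, 7.95% and 11.4% of those tested, against 20% and 13.7% of all genes. The members' median change was -0.07, that of all genes -0.01.

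**Figure D2:**
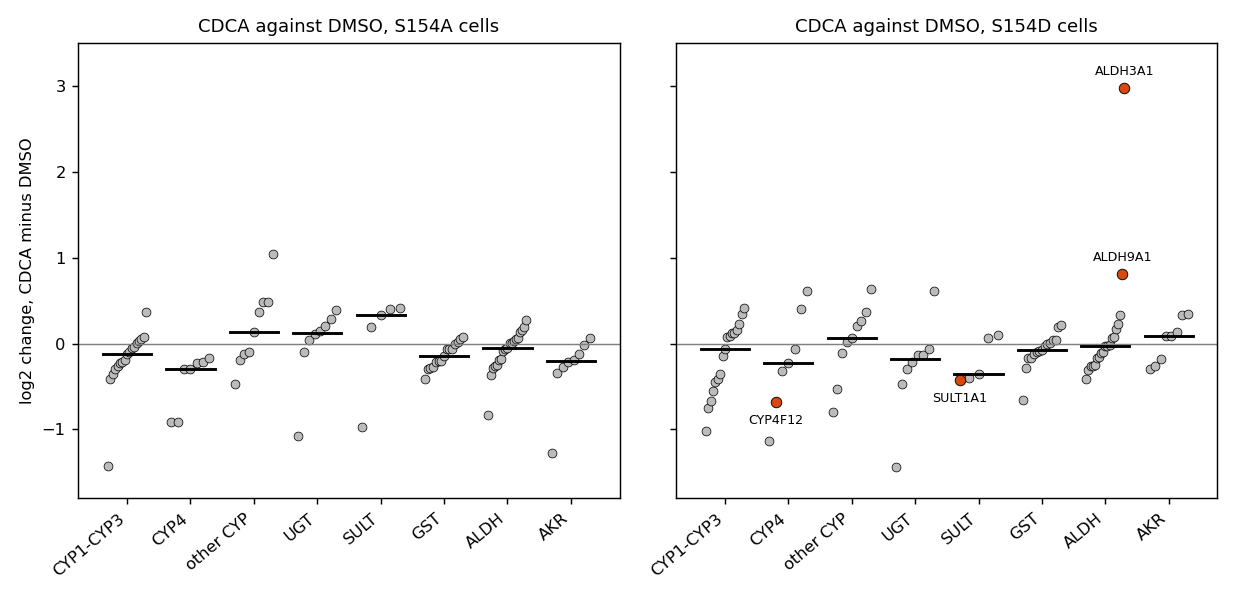
Log2 change with CDCA (vertical axis) of the 88 tested members by family (horizontal axis), in S154A cells (left) and S154D cells (right); each point is 1 gene, black bars are family medians, and orange points with names were called. No member was called in S154A cells, and ALDH3A1 in S154D cells stands highest at a fitted 2.97, which is no measured size since it was not above background in S154D DMSO.

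ALDH3A1 oxidises medium-chain and aromatic aldehydes and belongs to the genes driven by the aryl hydrocarbon receptor. Its values were -6.79, -7.72 and -7.72 in S154D DMSO and -4.16, -5.40 and -3.75 in S154D CDCA. They were -5.14, -6.19 and -4.85 in S154A DMSO and -6.60, -7.04 and -5.02 in S154A CDCA. All 3 S154D CDCA arrays lay above all 3 S154D DMSO arrays, whereas the S154A groups overlapped.

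The probe was dim. It was well above background on 0 of 3 S154D DMSO, 3 of 3 S154D CDCA, 2 of 3 S154A DMSO and 1 of 3 S154A CDCA arrays. It passed the filter, which asks for all 3 arrays of a group, only through S154D CDCA, the group in which it was high, and so entered the test by the difference that was tested. The fitted log2 change in S154D cells was 2.97 ± 0.59 (adjusted p = 0.0289, and 0.0864 with no filter on dim probes). Since no S154D DMSO array measured it, this value is no measured size. Stated as a bound under the main background correction only, ALDH3A1 was at least 3.08-fold higher with CDCA. With a different background correction (normexp) the log2 change was 0.81, smaller than that bound. RNA was taken from whole cultures, so more cells with the transcript and more transcript per cell cannot be told apart.

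ALDH9A1 oxidises aminoaldehydes, among them an intermediate of carnitine synthesis, and was well above background on all 12 arrays. Its values were -2.25, -1.99 and -2.24 in S154D DMSO and -0.94, -1.66 and -1.46 in S154D CDCA. All S154D CDCA arrays were above all S154D DMSO arrays, and array 1 stood highest. The change was 0.81 ± 0.19, 1.75-fold (adjusted p = 0.035). In S154A cells the values were -1.66, -1.41 and -1.66 with DMSO and -1.72, -1.71 and -2.17 with CDCA, and the S154A CDCA arrays lay lowest.

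CYP4F12 oxidises fatty acids and some drugs. Its values were -2.70, -2.49 and -2.47 in S154D DMSO and -2.77, -3.34 and -3.60 in S154D CDCA. The groups did not overlap, but S154D CDCA array 1 was only just below the nearest DMSO array. The fall was -0.68 ± 0.19 on the log2 scale, 1.61-fold (adjusted p = 0.046). In S154A cells the values were -2.61, -2.71 and -2.65 with DMSO and -3.00, -3.09 and -2.78 with CDCA. There too the CDCA arrays lay below the DMSO arrays, with a difference of -0.30 ± 0.19 (adjusted p = 0.904).

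SULT1A1 adds sulfate to phenols, including drugs and thyroid hormone. Its values were -0.09, -0.14 and -0.02 in S154D DMSO and -0.40, -0.46 and -0.67 in S154D CDCA. In S154A cells they were -0.30, -0.12 and -0.22 with DMSO and -0.05, 0.11 and 0.30 with CDCA. Neither pair overlapped, and the CDCA arrays lay below the DMSO arrays with S154D and above them with S154A. The change with S154D was -0.42 ± 0.12, 1.34-fold lower (adjusted p = 0.0479), and the difference with S154A was 0.33 ± 0.12 (adjusted p = 0.799).

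**Figure D3:**
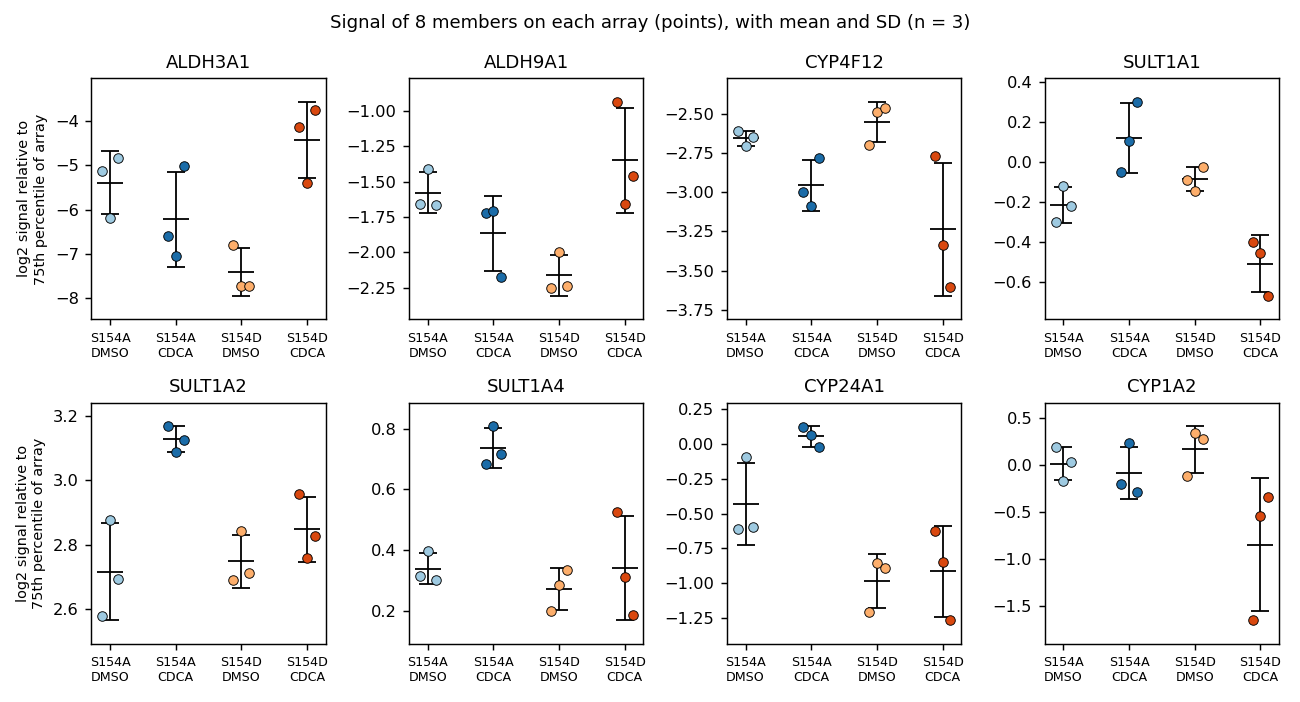
Log2 signal relative to the array's 75th percentile (vertical axes, each panel on its own scale) of 8 members on each of the 12 arrays (points), by group (horizontal axis), with the group's mean and SD (n = 3). The S154D CDCA arrays lie above the S154D DMSO arrays for ALDH3A1 and ALDH9A1 and below them for CYP4F12, SULT1A1 and CYP1A2.

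These calls were sensitive to 1 array or 1 slide. No member was called with slide as a block, with probe GC content removed, or without slide 2, which held S154D CDCA arrays 1 and 3; of all 20355 genes these fits called 0, 0 and 6. No member was called without S154D CDCA array 3, S154D DMSO array 1 or S154D DMSO array 3 either, and without S154D CDCA array 1 there were 5, without ALDH9A1 and with CYP11B1 and CYP4F2. Leaving out S154D CDCA array 2, S154A DMSO array 1 or 2, or S154A CDCA array 1 or 2 left ALDH3A1 and ALDH9A1, and leaving out S154A DMSO array 3 left ALDH3A1.

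Slide 3 held 1 array of every group, and on it the CDCA minus DMSO difference with S154D was 2.32 for ALDH3A1, 0.58 for ALDH9A1, -0.87 for CYP4F12 and -0.43 for SULT1A1. With slide as a block the values were 2.94 (adjusted p = 0.138), 0.61 (0.171), -0.72 (0.204) and -0.45 (0.195). The slide 3 values use arrays of the unblocked fit, in which the groups of these members do not overlap. Their direction was therefore fixed in advance and is no check against slide. With slide as a block the direction of each was that of the unblocked fit. The ALDH3A1 values again rest on DMSO spots not well above background.

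Probe composition moved with the response in S154D cells. Across all 20355 genes the log2 change had a Spearman correlation of -0.56 with the GC content of the probe, and across the 88 members of -0.37, given as a description over genes of the same arrays. With S154A the values were -0.11 and 0.18. The ALDH3A1 and CYP4F12 probes have 45% GC, the median of the tested members, and with GC content removed their changes were 2.98 (adjusted p = 0.103) and -0.67 (0.113). The ALDH9A1 probe has 36.7% GC and its change became 0.52 (0.165). The SULT1A1 probe has 55% and its change became -0.17 (0.429).

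**Figure D4:**
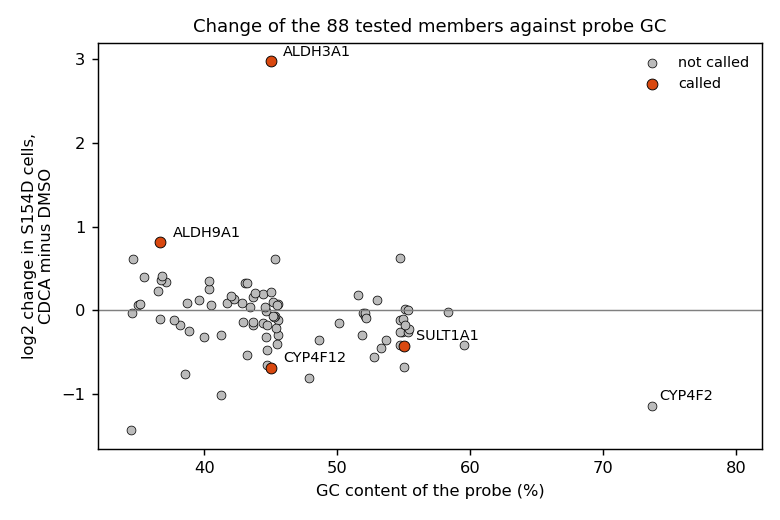
Log2 change with CDCA in S154D cells (vertical axis) against the GC content of the probe in percent (horizontal axis, points that were not called shifted by up to 0.6 sideways so that they can be told apart) for the 88 tested members; orange points were called. ALDH9A1 lies at 36.7% GC and 0.81, SULT1A1 at 55% and -0.42, and CYP4F2 at 73.3% and -1.14.

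Several members with no overlap between groups in S154D cells did not pass the test. CYP1A2, which oxidises caffeine and aromatic amines, had -0.12, 0.34 and 0.28 with DMSO and -1.65, -0.55 and -0.34 with CDCA. The CDCA arrays were below, array 1 far below, and the difference was -1.02 ± 0.30 (adjusted p = 0.0589). GSTA2, which conjugates glutathione, differed by -0.65 ± 0.25 (adjusted p = 0.114) and was well above background on 10 of 12 arrays.

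In S154A cells none of the 88 members was called with CDCA against DMSO. Of all genes tested 0.133% were called, so fewer than 1 call would match that share. At an unadjusted p under 0.05 there were 10 members, 11.4% against 6.04% of all genes. Groups did not overlap for 6 members above (6.82%, against 3.7% of all genes) and 16 below (18.2%, against 8.21%). The members' median difference was -0.10 and that of all genes -0.04.

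Of the family medians in S154A cells, CYP4 lay lowest at -0.29, with 0 of 7 tested members above 0. AKR stood at -0.20 with 1 of 8 above 0, and GST at -0.15 with 3 of 15. SULT had 0.33 with 4 of 5 above 0, and the cytochromes P450 outside the CYP1 to CYP4 families had 0.14. Of all genes tested in S154A cells 40.1% had a difference above 0, and their median was -0.04. In S154D cells the SULT median was -0.35, CYP4 -0.23, GST -0.08 and AKR 0.09. No test was made of these medians.

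The SULT1A probes were read side by side in S154A cells. SULT1A2, another phenol sulfotransferase, had 2.58, 2.88 and 2.69 with DMSO and 3.17, 3.09 and 3.13 with CDCA. SULT1A4, which sulfates catecholamines, had 0.31, 0.40 and 0.30 with DMSO and 0.68, 0.81 and 0.72 with CDCA; it was picked after its values were seen. For both, and for SULT1A1 above, every S154A CDCA array was higher than every S154A DMSO array. The differences were 0.41 ± 0.10 (adjusted p = 0.447) and 0.40 ± 0.10 (adjusted p = 0.476), not past the threshold.

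With S154D the same probes gave 2.69, 2.84 and 2.71 with DMSO against 2.96, 2.76 and 2.83 with CDCA for SULT1A2. For SULT1A4 they gave 0.20, 0.28 and 0.34 against 0.53, 0.31 and 0.18. The groups overlapped for both, unlike those of SULT1A1. The differences were 0.10 ± 0.10 and 0.07 ± 0.10.

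Other members stood apart in S154A cells without a call. CYP24A1, which inactivates vitamin D, had -0.61, -0.09 and -0.60 with DMSO and 0.12, 0.06 and -0.02 with CDCA, a difference of 0.49 ± 0.19 (adjusted p = 0.82). CYP11A1, which cuts the cholesterol side chain, differed by 0.48 ± 0.40. SULT4A1, a sulfotransferase of brain, differed by -0.97 ± 0.27 (adjusted p = 0.555), UGT2A1, a glucuronosyltransferase known from olfactory tissue, by -1.08 ± 0.43 and AKR1CL2 by -1.27 ± 0.49. SULT4A1, UGT2A1 and AKR1CL2 were each well above background on only 2 of 3 S154A CDCA arrays. For AKR1CL2, S154A DMSO array 3 stood at -3.09 and the other two at -5.10 and -5.37, so that array made much of the difference.

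The direct test of the difference between both responses, S154D minus S154A, called no member and 0.147% of all genes. At an unadjusted p under 0.05 there were 12 members, 13.6% against 22.4% of all genes. The difference was -0.76 ± 0.17 for SULT1A1 (adjusted p = 0.0732). For ALDH3A1 the adjusted p was the same, but no size is given, since it was not measured in S154D DMSO. It was 1.10 ± 0.28 for ALDH9A1 (adjusted p = 0.0874) and 1.53 ± 0.64 for CYP4B1, a fatty acid and drug oxidase (adjusted p = 0.197). CYP4B1 was well above background on 3 S154D CDCA arrays and on 1 array of each other group, and passed the filter only through S154D CDCA, where it was high. CYP1A2 had -0.91 ± 0.43. A different response of these members to CDCA with the 2 mutants is therefore not shown at the threshold. The 95% interval for SULT1A1 runs from -1.12 to -0.39, but it is not adjusted for the number of genes tested.

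In CDCA, S154D against S154A called no member and 0.403% of all genes. At an unadjusted p under 0.05 there were 13 members, 14.8% against 23.6% of all genes. Groups did not overlap for 15 members above (17%, against 20.9% of all genes) and 7 below (7.95%, against 7.63%). CYP24A1 had -0.62, -0.85 and -1.27 in S154D CDCA and, as given, -0.02 to 0.12 in S154A CDCA. All S154D arrays were lower, the difference was -0.97 ± 0.19 (adjusted p = 0.0616), and a second kept probe of the gene gave -1.05. It was called with probe GC content removed (-1.12, adjusted p = 0.0379), and in 4 of 26 alternatives in all, with adjusted p up to 0.837. The S154D CDCA arrays lay on slides 2, 3 and 2 and the S154A CDCA arrays on slides 3, 4 and 1. Only slide 3 held both, so slide and mutant are largely confounded here and cannot be fully told apart.

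SULT1A1 differed by -0.63 ± 0.12 between the mutants in CDCA (adjusted p = 0.0565). It was called in 3 of 26 alternatives, with adjusted p up to 0.919. Without S154D CDCA array 1, CYP24A1, SULT1A1 and SULT1A4 were called in this comparison. CYP4B1 differed by 1.07 ± 0.45 and CYP1A2 by -0.76 ± 0.30. CYP4B1 again rests on 1 of 3 S154A CDCA arrays above background. AKR1CL2, well above background on 2 of 3 S154A CDCA arrays, differed by 0.79 ± 0.49, less than 2 standard errors. UGT2B28 was not well above background on any CDCA array, so no difference is given.

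In DMSO, S154D against S154A called no member and 0% of all genes, while 6 members (6.82%) and 884 genes (4.34%) had an unadjusted p under 0.05. Groups did not overlap for 2 members above (2.27%, against 4.82% of all genes) and 7 below (7.95%, against 6.23%). The S154D DMSO arrays of ALDH3A1 all lay below the S154A DMSO arrays. None of them was well above background, against 2 of 3 S154A DMSO arrays. Its difference is therefore given as a bound, at least 1.59-fold lower with S154D (adjusted p = 0.996). Under alternatives the log2 difference ran from -2.42 to -0.41, so this bound holds only for the main processing. ALDH9A1 differed by -0.58 ± 0.19 and CYP24A1 by -0.55 ± 0.19, also without overlap. CYP17A1, of steroid synthesis, and GSTZ1, of tyrosine breakdown, differed by 0.38 ± 0.18 and 0.18 ± 0.10. The S154D DMSO arrays that are low for the ALDH genes here are the same arrays against which their change with CDCA was measured.

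Members known to take part in bile acid handling or to be FXR targets gave few values. Of 10 on the array 5 were tested, CYP3A4, CYP3A5, CYP3A7, GSTA4 and AKR1B10, and none was called in any comparison. The others were marked on few arrays: SULT2A1, which sulfates bile acids, on 5, UGT2B4 and UGT2B7, which glucuronidate them, on 1 each, and AKR1C4 and AKR1D1 on 0. CYP3A4, which hydroxylates bile acids and many drugs, had -2.31, -2.32 and -2.58 in S154D DMSO and -2.05, -2.06 and -2.06 in S154D CDCA. The S154D CDCA arrays were all higher, by 0.35 ± 0.16 (adjusted p = 0.189).

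In S154A cells CYP3A4 had -2.36, -1.96 and -2.66 with DMSO and -2.43, -2.67 and -2.45 with CDCA, and the groups overlapped. CYP3A5 and CYP3A7, its relatives, differed with CDCA by 0.01 ± 0.27 and 0.08 ± 0.13 in S154A cells and by -0.35 ± 0.27 and 0.12 ± 0.13 in S154D cells. A second CYP3A5 probe, also marked on all 12 arrays, gave 0.45 in S154D cells, so the direction turns with the probe. GSTA4, which removes lipid aldehydes, differed by -0.06 ± 0.12 and 0.04 ± 0.12. AKR1B10, a reductase of retinal and lipid aldehydes, differed by -0.28 ± 0.14 and 0.09 ± 0.14.

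UGT2B28 and UGT2B4, steroid and bile acid glucuronosyltransferases, had 1 array in common that stood apart. On S154D DMSO array 3 UGT2B28 was at -2.97 and UGT2B4 at -2.70. On the other 2 S154D DMSO arrays UGT2B28 was at -6.23 and -5.74 and UGT2B4 at -6.47 and -7.73. UGT2B28 was well above background on all 3 S154D DMSO arrays, through which alone it passed the filter, on 1 S154A DMSO array and on none with CDCA. The S154D DMSO and S154D CDCA arrays overlapped, and the gene was not called (adjusted p = 0.213). The fitted difference went from -1.43 to -0.43 without array 3, so no fold is given.

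Of the 6 members of the aryl hydrocarbon receptor battery on the array, 5 were tested and 1, ALDH3A1, was called, in S154D cells with CDCA, where 10.2% of all genes were called. Since ALDH3A1 had passed the filter only through S154D CDCA, the group where it is high, its call says nothing about the battery. CYP1A1, the classic target of that receptor, had -3.40, -4.32 and -4.16 in S154D DMSO and -4.23, -4.39 and -4.60 in S154D CDCA, overlapping, with a difference of -0.45 ± 0.24. CYP1B1 differed by 0.08 ± 0.14 and UGT1A6 by -0.07 ± 0.37. The battery's median change was -0.07, that of all genes -0.01. Of the 5 tested, 2 had values above 0, ALDH3A1 and CYP1B1, where 49.1% of all genes did. A second kept probe of UGT1A6 gave 0.19, on the other side of 0.

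NRF2 related members, which respond to oxidants and electrophiles, numbered 12, of which 11 were tested and 1, again ALDH3A1, was called in S154D cells with CDCA. That is 9.09%, near the 10.2% of all genes called there. As ALDH3A1 passed the filter only through S154D CDCA, where it is high, this call says nothing about the list. AKR1C1 and AKR1C3, reductases of steroids and prostaglandins, differed by 0.14 ± 0.18 and 0.33 ± 0.14 there. AKR1B1, the reductase of glucose, differed by -0.29 ± 0.14. GSTM1, GSTM3 and GSTP1 differed by -0.03 ± 0.12, -0.01 ± 0.12 and -0.10 ± 0.16, and the median of the list was -0.01. The other kept probes of AKR1C1 gave from -0.01 to 0.91, and a second one of GSTM3 gave 0.11. In S154A cells that median was -0.22 with 2 of 11 above 0, where 40.1% of all genes were, and none called.

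Of the genes that serve these enzymes without being members, 4 were called in S154D cells with CDCA, all higher, where 6.45% of all genes were called higher. Of 15 redox partners and cofactor enzymes tested 3 rose: GCLM by 0.66 ± 0.14 (adjusted p = 0.03), GCLC by 0.58 ± 0.13 (0.031) and FDX1 by 0.38 ± 0.10 (0.0419). GCLM and GCLC form the enzyme that limits glutathione synthesis, the cosubstrate of GST, and FDX1 passes electrons to mitochondrial cytochromes P450. Of 19 other oxidising, reducing and hydrolysing enzymes tested, CBR4, a carbonyl reductase, rose by 0.66 ± 0.18 (0.0447). None of 7 other conjugating enzymes or 8 regulators was called.

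As with the called members, none of these 4 genes was called with probe GC content removed or with slide as a block. With probe GC content removed GCLM had 0.30 (adjusted p = 0.208), GCLC 0.29 (0.19), FDX1 0.27 (0.158) and CBR4 0.30 (0.297). With slide as a block their adjusted p-values were 0.138, 0.138, 0.145 and 0.216. In S154A cells their differences were 0.22 ± 0.14, 0.15 ± 0.13, 0.00 ± 0.10 and -0.15 ± 0.18, none called.

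The median size of a member's difference with CDCA was 0.20 in S154A cells and 0.21 in S154D cells, against 0.13 and 0.27 for all genes. By that median, members differed more than all genes in S154A cells and less in S154D cells. ALDH2, the mitochondrial enzyme that clears acetaldehyde, had group means of 4.43, 4.43, 4.57 and 4.54 in the order S154A DMSO, S154A CDCA, S154D DMSO and S154D CDCA, with SDs from 0.03 to 0.15. ALDH1A1, which makes retinoic acid, ranged from -2.10 to -1.51 over the 12 arrays, and its groups with and without CDCA overlapped for S154D. GSTP1, the main GST outside the liver, ranged from 6.42 to 7.03. ALDH2, ALDH1A1 and GSTP1 were chosen after their values were seen.

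Where a member had more than 1 usable probe, the probes did not always side together. Of 24 such members, all kept probes had the same sign of the CDCA difference for 21 in S154A cells and for 12 in S154D cells. CYP4F2, a fatty acid and vitamin K oxidase, had 3 kept probes with differences of -0.92, -0.73 and -0.52 in S154A cells and -1.14, -0.83 and -0.43 in S154D cells, all below 0 and, on the brightest probe, not called; it was picked after its values were seen. None of the 4 called members had a second probe.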

How the data were processed

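The 117 members and all gene lists were chosen with earlier results of these data known. The deposited scanner files give, per spot, an intensity after background subtraction and detrending in Agilent Feature Extraction (version 9.5.3.1 per the file headers, version 12 per the submitters' processing notes), and flags of 0 or 1. The deposited series table held the same intensities. Here log2 intensities were set against each array's 75th percentile over non-control spots, without outlier spots, and 43376 spots were averaged into 41000 probes. Probes well above background on all 3 arrays of a group were kept, the brightest per name entered, and 1 mean per group was fitted to 12 arrays with limma 3.58.1 (R 4.3.3, two-sided, Benjamini-Hochberg over 20355 genes). An "at least" fold sets the brighter group against, per array of a group that did not measure the member, the higher of its own signal and the dimmest signal above background. Such a fold holds only for the main background correction. The number of arrays limits the precision.

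Named are all called members, all members of 3 lists (bile acid or FXR, aryl hydrocarbon receptor, NRF2), the 3 highest and 3 lowest non-overlapping members per comparison with under 6 calls, members detected throughout 1 group and nowhere in another, and called list genes. A gene that the rule names is not reported here. Alternatives covered background correction, scaling, filter, probe choice, GC content, slide, replicate block and arrays left out. The fit was tested on simulated data. Same-numbered arrays deviated with correlations of -0.23 to 0.36, over 0.1 for 5 of 12 pairs, so numbers were not taken as pairs.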

Additional observations from a re-analysis of the deposited data

How the results depend on the processing

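With CDCA against DMSO in S154D cells, the 4 called members became 0 with no filter on dim probes, with only the arrays of the 2 groups, with probe GC content removed (also together with the replicate block or with slide as a block), with the replicate block, with the series table's unscaled values, with slide as a block, and without slide 2. Leaving out 1 array at a time gave 0 to 5. Quantile normalisation, normexp, the mean of kept probes, probes marked on all 12 arrays, and leaving out slide 4 gave 4, 3, 3, 5 and 3. The replicate block called 0 of 20355 genes there, and its values for ALDH3A1, ALDH9A1, CYP4F12 and SULT1A1 were 2.97, 0.81, -0.68 and -0.42 (adjusted p from 0.053 to 0.0796).

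For S154D against S154A in CDCA, 0 called members became 2 with quantile normalisation and with probes marked on all 12 arrays (CYP24A1 and SULT1A1 each time), 1 with probe GC content removed (CYP24A1), and 0 to 3 with 1 array left out. For the difference of responses, 0 became 1 with quantile normalisation. The counts for S154A cells with CDCA and for DMSO were 0 under every alternative run. The number of members that would pass the filter was 88 to 90 with 1 array left out. The fits with arrays left out kept the filter and probes of all 12 arrays, so they tested the same 88 members. Of the values of named members under alternatives, 728 stayed the same, 70 lost the call and 12 gained one. Another 18, all within slides, moved by more than the spread, and 1 turned: GSTZ1 between mutants in DMSO, -0.061 with unscaled values. For a refit, the same means the same direction and side of the threshold. Values within 1 slide had no test. There, the same means within the spread of arrays, and turns were counted only for called members. The unscaled values shift the median of all genes by -0.14 with S154A and 0.18 with S154D. ALDH3A1 in S154D cells was called in 13 of 25 alternatives (adjusted p 0.0258 to 0.274, log2 change 0.81 to 3.46). ALDH9A1 was called there in 12 of 26, and CYP4F12 and SULT1A1 in 4 of 26 each. Dim probes limit ALDH3A1, UGT2B28 and the 29 untested members. The causes of these changes were not tested.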
